A study of Arabidopsis thaliana with 43 samples.

Results

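The 10 genes described here make Rubisco small subunits and enzymes of the Calvin cycle in the thale cress Arabidopsis thaliana. They were named by locus: RBCS1A (AT1G67090), RBCS1B (AT5G38430), RBCS2B (AT5G38420), RBCS3B (AT5G38410), RCA (AT2G39730), PRK (AT1G32060), GAPA1 (AT3G26650), GAPB (AT1G42970), SBPase (AT3G55800) and HCEF1 (AT3G54050). All 10 were found among the 32507 loci of the deposited tables, and all 10 passed the filter on low counts. Transcripts were sequenced from pools of 50 wild-type Col-0 embryos at 8 stages. The youngest were preglobular embryos of 8 to 16 cells, followed by the globular stage, an early and a late heart stage, an early and a late torpedo stage, the bent cotyledon stage and, as the oldest, mature green embryos. Each stage had 3 biological replicates, prepared with Smart-seq2, a full-length protocol for small amounts of poly(A) RNA. Bent cotyledon RNA was also diluted and prepared with Smart-seq2 at 5, 1, 0.5 and 0.1 ng (3 libraries each; the 5 ng libraries stand for the stage), and with the Ovation and SMARTer kits at 5, 1, 0.5, 0.1 and 0.05 ng (1 library each). No mutant, treatment or other accession was included, so each comparison is between stages, inputs or kits of 1 genotype.

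The Calvin cycle is the set of reactions in the chloroplast stroma that fixes carbon dioxide into sugar phosphates. Rubisco, the carboxylase, is built from a large subunit encoded in the plastid and small subunits encoded by a nuclear RBCS family. Its product is reduced by plastid glyceraldehyde-3-phosphate dehydrogenase, and the acceptor is then rebuilt by a chain of enzymes that ends with phosphoribulokinase. Arabidopsis embryos turn green during the middle of their development and lose chlorophyll again as the seed dries.

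Whole embryos were measured in bulk, so fewer cells of a type and less RNA per cell cannot be told apart in any value below. The 24 stage libraries held 8432892 to 35807605 estimated counts. Levels are given as CPM, counts scaled to a common total after scaling between libraries by the trimmed mean of M-values (TMM), or as TPM, which also divides by transcript length and is the scale for comparing genes. A gene was called where edgeR's quasi-likelihood test gave a Benjamini-Hochberg adjusted p under 0.05 over the 21014 genes tested. Early torpedo replicate 2 stood apart from its stage: across genes its correlation with the other early torpedo libraries averaged 0.946, and its closest library was late torpedo replicate 1 (r = 0.973). Results that touch early torpedo are therefore also given without it. Preglobular replicate 3 had the lowest level of its stage for 8 of the 10 genes. Mature green replicates are numbered 1 to 3 in their titles, but each description calls its sample the first replicate, and they were taken as 3 samples. Of 6 embryo markers, LEC1-LIKE (6.71 to 720 TPM), ABI3 (5.65 to 70.9), ATML1 (11.5 to 57.5) and LEC2 (0.0316 to 19.5) were detected in all 24 stage libraries. STM reached 20.6 TPM and was at 0 in 3 libraries, those of preglobular. The early embryo gene WOX2 reached 60.9 TPM and was at 0 in 2 libraries. At mature green WOX2 averaged 0.0326 TPM and LEC2 0.0451 TPM. The 6 summed to 92.6 to 191 TPM there and to 101 to 823 TPM in the earlier libraries.

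The small-subunit family sits at a pair of places in the genome. RBCS1A lies on chromosome 1 (chr1:25048158-25049667), whereas RBCS3B, RBCS2B and RBCS1B are consecutive protein-coding genes on chromosome 5, spanning chr5:15376988-15378642, chr5:15380907-15382071 and chr5:15383167-15385320. All 4 are on the minus strand, and positions are those of the RefSeq annotation of assembly TAIR10.1. The coding sequence of RBCS1A was 90.4 to 90.6% identical to those of the chromosome 5 genes, which were 96.7 to 97.3% identical to each other. The first 90 coding bases, shown 5′ to 3′ as an example of how closely the copies match, differ from RBCS1A at 16, 16 and 14 positions. Capitals mark a base that differs from RBCS1A. The sequences are from RefSeq TAIR10.1.
RBCS1A: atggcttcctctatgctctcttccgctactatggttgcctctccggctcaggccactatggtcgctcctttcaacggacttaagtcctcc
RBCS1B: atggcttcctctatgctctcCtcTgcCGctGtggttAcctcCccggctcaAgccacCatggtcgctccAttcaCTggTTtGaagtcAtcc
RBCS2B: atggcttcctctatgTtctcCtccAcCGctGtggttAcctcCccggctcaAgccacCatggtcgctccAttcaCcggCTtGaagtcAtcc
RBCS3B: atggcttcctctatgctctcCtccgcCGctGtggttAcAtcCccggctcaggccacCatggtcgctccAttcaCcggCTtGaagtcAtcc
These stretches are chr1:25049160-25049249, chr5:15385066-15385155, chr5:15381889-15381978 and chr5:15378217-15378306, in that order. Of the 50-base stretches in each gene's annotated transcripts, 50 bases being the length of a read, 1.42% in RBCS1A were shared with another locus. The share was 13.9% in RBCS1B, 21.4% in RBCS2B and 14.6% in RBCS3B. Reads from such stretches are divided by likelihood, so the levels of the chromosome 5 copies are less certain than that of RBCS1A.

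RBCS1A was by far the most abundant small-subunit transcript at every stage. It stood at 125, 164 and 20.6 CPM in the preglobular libraries and at 502, 541 and 722 CPM in the globular libraries. Early heart libraries held 1044, 1434 and 1444 CPM, and late heart libraries 1898, 1881 and 2016 CPM. In early torpedo the values were 3195, 9586 and 3416 CPM, the middle one being the library that stood apart. Late torpedo followed with 8147, 5433 and 6308 CPM, bent cotyledon with 6228, 5810 and 5394 CPM, and mature green with 2789, 2910 and 1629 CPM. The libraries of the first 4 stages did not overlap from one stage to the next, while early torpedo, late torpedo and bent cotyledon overlapped. In order of mean level, late torpedo (6629 ± 1386 CPM, SD, n = 3), bent cotyledon (5811 ± 417) and early torpedo (5399 ± 3628) came first, and neighbours in that order did not differ beyond their spread. Mature green (2443 ± 707) came next and overlapped late heart (1932 ± 73.8). This order depended on the scale: in TPM, mature green (1228 ± 401, from 766 to 1483) lay below late heart (2288 ± 83.7, from 2201 to 2368) without overlap. By TPM, RBCS1A ranked between place 954 and place 5207 of all loci at preglobular. It ranked between places 8 and 11 at late torpedo, and between places 46 and 74 at mature green.

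**Figure D1:**
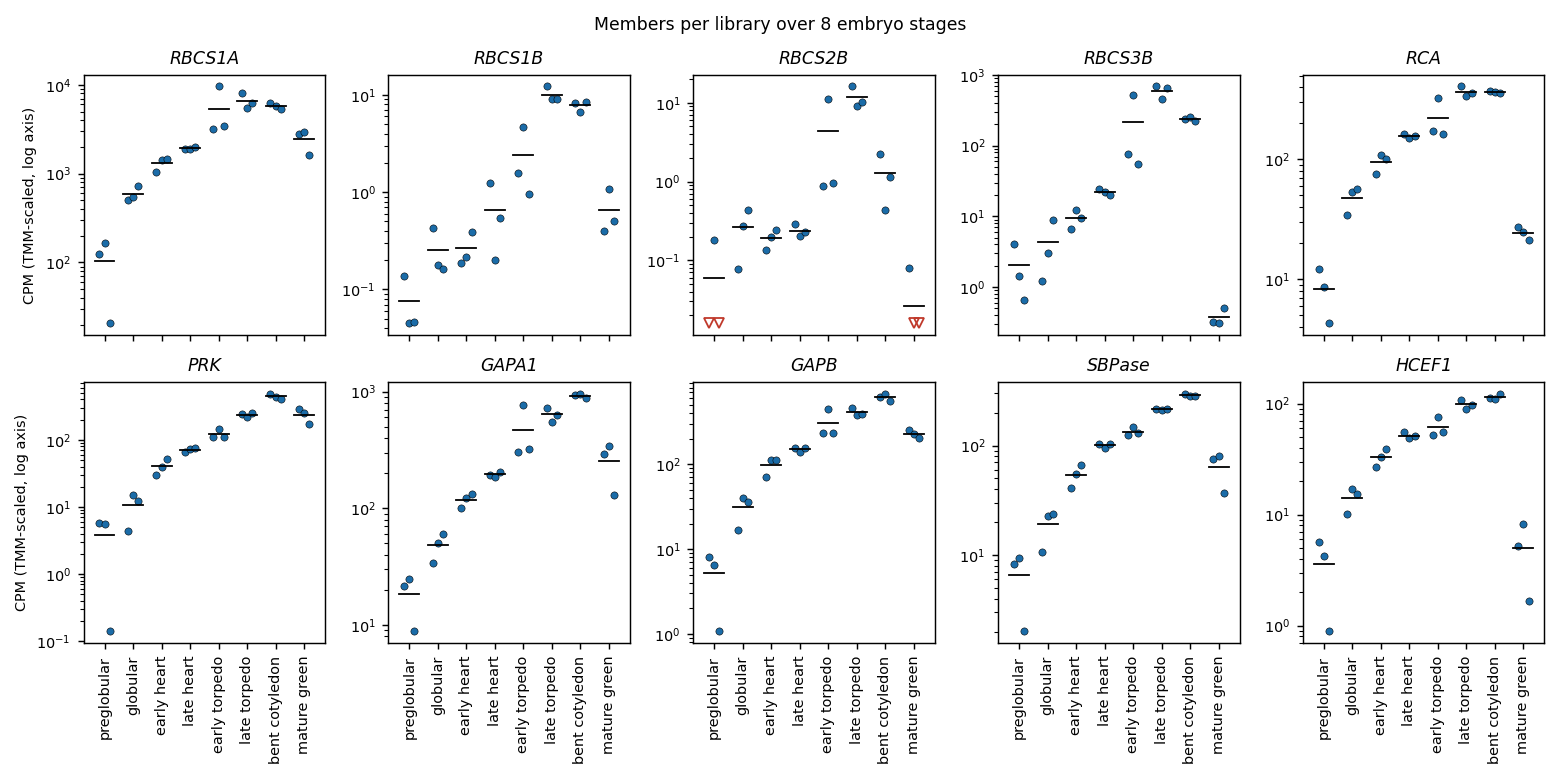
Level of each of the 10 genes in every stage library, in TMM-scaled CPM on a log axis, with stages along the horizontal axis. Each point is 1 library, the bars are stage means (n = 3), and open triangles mark libraries with 0 counts; the 4 small-subunit genes and RCA have their highest mean at late torpedo and the other 5 genes at bent cotyledon.

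RBCS1A rose from preglobular to globular by 2.51 ± 0.50 on the log2 scale (SE; adjusted p = 0.00092), a 5.70-fold change. Without the low preglobular replicate 3 the rise was 2.00 (adjusted p = 0.00137). Its rise from late heart to early torpedo (1.48 ± 0.48, adjusted p = 0.0358) rested on early torpedo replicate 2: without that library the difference was 0.78, with an adjusted p of 0.311. It fell from bent cotyledon to mature green by 1.25 ± 0.47 on the log2 scale (adjusted p = 0.0303), 2.38-fold. That call was lost without bent cotyledon replicate 1 or 2, or without mature green replicate 1 or 3, although all 3 mature green libraries lay below all 3 bent cotyledon libraries. Mature green remained far above preglobular, by 4.57 ± 0.54 on the log2 scale (adjusted p = 1.5e-07).

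RBCS3B, the second small-subunit gene by TPM from preglobular to bent cotyledon, went through a steeper course. Its stage means in TPM, which can be set beside those of other genes, were 1.58 at preglobular, 12.4 at early heart, 26.8 at late heart and 493 at late torpedo, then 206 at bent cotyledon and 0.188 at mature green. In early torpedo its libraries held 74.6, 399 and 49.0 TPM, so replicate 2 lay within the late torpedo range of 377 to 569 TPM. The rise from late heart to early torpedo was 3.29 ± 0.68 on the log2 scale (adjusted p = 0.00281), and 1.57 (adjusted p = 0.0357) without that library. RBCS3B had the largest fall among the 10 genes at the last step. Its counts went from 1924, 2330 and 2711 in the bent cotyledon libraries to 4, 4 and 6 in the mature green libraries, a log2 fold change of -9.31 ± 1.03 (adjusted p = 1.49e-07). The ratio of the summed counts, scaled by TMM, was 640 with an exact 95% counting interval from 381 to 1172. On the CPM scale, and not the TPM scale of the means above, RBCS3B at mature green was 0.0625% of its late torpedo mean. RBCS1A was 36.8% of its own on that CPM scale.

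RBCS2B and RBCS1B were rare throughout. RBCS2B reached 14.9, 9.05 and 10.6 TPM at late torpedo and lay between 0.398 and 2.04 TPM at bent cotyledon. At mature green 1 count was assigned to it over 3 libraries. Its rise from late heart to early torpedo (4.15 ± 0.88, adjusted p = 0.00339) was lost without early torpedo replicate 2, which held 267 counts against 21 and 25 in replicates 1 and 3; the difference was then 1.91 (adjusted p = 0.0765). From late torpedo to bent cotyledon RBCS2B fell by 3.23 ± 0.83 on the log2 scale (adjusted p = 0.00497), from 640 to 36 summed counts. From bent cotyledon to mature green it fell again (adjusted p = 0.00488), by a ratio of 46.3 with a 95% counting interval from 7.80 to 1880. RBCS1B rose from late heart to early torpedo by 1.84 ± 0.56 on the log2 scale (adjusted p = 0.0276), although the libraries overlapped, and the difference was 0.92 (adjusted p = 0.303) without early torpedo replicate 2. That call was also lost without late heart replicate 2 or 3, and the difference was 2.67 without late heart replicate 1. RBCS1B peaked at late torpedo with 9.33 to 12.2 TPM and held 8.26, 7.53 and 10.7 TPM at bent cotyledon. It then fell by 3.55 ± 0.62 on the log2 scale (adjusted p = 5.1e-05). These intervals cover counting error only, since amplified reads are not independent molecules.

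The make-up of the small-subunit pool differed between stages. RBCS1A supplied 97.5 ± 1.30% (SD, n = 3) of small-subunit counts at preglobular, 99.3 ± 0.122% at early heart and 98.8 ± 0.157% at late heart. Its share was 96.9 ± 1.91% at early torpedo, 91.4 ± 0.904% at late torpedo and 95.9 ± 0.188% at bent cotyledon. At mature green it was 99.96 ± 0.0145%. RBCS3B took most of the remainder, with 2.31 ± 1.26% at preglobular and 0.709 ± 0.125% at early heart. It had 8.25 ± 0.926% at late torpedo and 0.0172 ± 0.00988% at mature green. Over the 8 stages the shares of RBCS1A and RBCS3B differed (permutation test, 100000 permutations, adjusted p = 4e-05 for each over the 4 genes). The shares of RBCS2B (adjusted p = 0.00349) and RBCS1B (adjusted p = 0.0231, permutation test) differed too, but leaving out replicate 1 of every stage took these to 0.0607 and 0.258. Late torpedo libraries had an RBCS3B share of 7.66 to 9.32%, above every library of any other stage, the highest of which was early torpedo replicate 2 at 5.10%. In TPM the 4 genes together came to 78.5 ± 55.8 at preglobular, 5807 ± 978 at late torpedo and 1229 ± 401 at mature green.

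**Figure D2:**
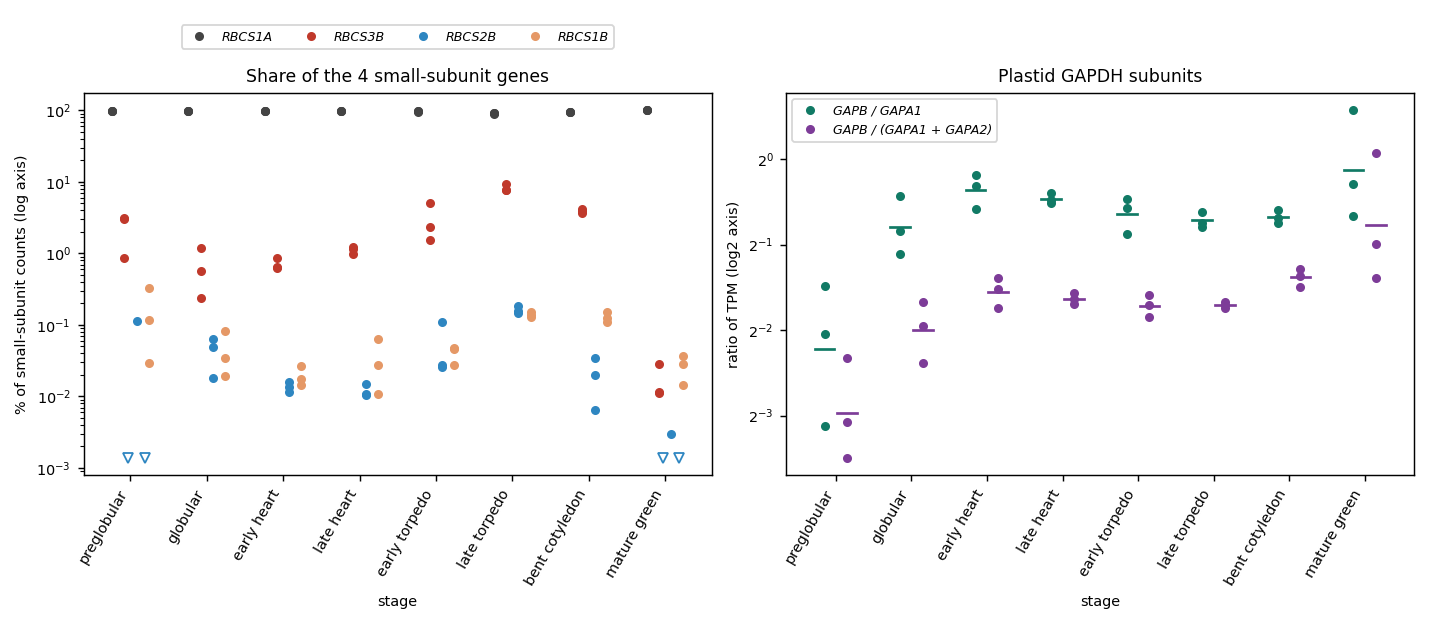
Left, share of each small-subunit gene in the summed counts of the 4 genes, in percent on a log axis, with 1 point per library at each stage and open triangles for libraries with 0 counts. Right, ratio of GAPB to GAPA1 and to GAPA1 plus GAPA2 in TPM on a log2 axis, with lines at the geometric mean; RBCS3B is highest at late torpedo and the GAPB ratios are lowest at preglobular.

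RCA encodes Rubisco activase, which frees inhibited active sites of Rubisco. It was measured at 12.1, 8.56 and 4.26 CPM in the preglobular libraries, 34.3, 53.6 and 56.1 CPM in the globular libraries and 75.3, 108 and 101 CPM in the early heart libraries. Both steps passed the test, with log2 fold changes of 2.53 ± 0.29 (adjusted p = 4.04e-06) and 0.98 ± 0.27 (adjusted p = 0.0168). The call at early heart was lost without globular replicate 1 or without early heart replicate 2 or 3. RCA then held 407, 338 and 359 CPM at late torpedo and 370, 366 and 359 CPM at bent cotyledon, ranges that overlapped. Without early torpedo replicate 2 it rose from early to late torpedo by 1.13 (adjusted p = 0.0157), against 0.74 (adjusted p = 0.207) with it. At mature green 27.1, 24.6 and 21.2 CPM remained, below all globular libraries. This last fall was 3.91 ± 0.31 on the log2 scale (adjusted p = 9.63e-10), to 6.66% of the bent cotyledon mean.

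GAPA1 and GAPB encode the A and B subunits of the plastid dehydrogenase that reduces the product of carboxylation; the B subunit carries the tail through which the enzyme is regulated by light. GAPA1 held 21.4, 25.0 and 8.86 CPM at preglobular, 939, 949 and 873 CPM at bent cotyledon and 292, 344 and 130 CPM at mature green. GAPB held 8.16, 6.41 and 1.08 CPM at preglobular, 620, 668 and 551 CPM at bent cotyledon and 253, 229 and 205 CPM at mature green. Both rose at globular (1.39 ± 0.37, adjusted p = 0.00928, and 2.56 ± 0.43, adjusted p = 0.000215). The GAPA1 call was lost without preglobular replicate 3 (1.03, adjusted p = 0.0681). Both also rose at early heart (1.28 ± 0.37, adjusted p = 0.019, and 1.68 ± 0.40, adjusted p = 0.00674). The early heart call of GAPA1 was lost without globular replicate 1 or without early heart replicate 2 or 3. GAPA1 rose again at early torpedo (1.25 ± 0.36, adjusted p = 0.0226), but the difference was 0.68 (adjusted p = 0.219) without early torpedo replicate 2. At that step the calls of GAPA1 and RBCS1A were also lost without any 1 of the 3 late heart libraries. At the last step GAPA1 fell 3.61-fold (adjusted p = 0.000228) and GAPB 2.68-fold (adjusted p = 0.00428). On the log2 scale these are -1.85 and -1.42, against -2.69 and -2.15 by limma on log2(TPM + 1).

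The balance of the subunits moved toward GAPB after the preglobular stage. The ratio of GAPB to GAPA1 in TPM had a geometric mean of 0.215 (0.115 to 0.359) at preglobular and 0.577 (0.462 to 0.742) at globular. It lay between 0.608 and 0.779 from early heart to bent cotyledon, and was 0.914 (0.629 to 1.48) at mature green. The 3 preglobular libraries lay below every other library, and the 3 mature green libraries overlapped those of each stage from globular to bent cotyledon. The ratio differed over the 8 stages (permutation test, adjusted p = 0.00047 over 2 ratios). Leaving out replicate 3 of every stage took this to 0.0496. With GAPA2, the second A-subunit gene, added to the denominator it went from 0.128 at preglobular to 0.384 at bent cotyledon and 0.586 at mature green (permutation test, adjusted p = 2e-05). The mature green libraries ran from 0.382 to 1.05, the highest being replicate 3, and overlapped the bent cotyledon range of 0.354 to 0.411. The preglobular and globular libraries overlapped in that ratio (0.0889 to 0.200 and 0.192 to 0.314). No 50-base stretch was shared between GAPA1, GAPA2 or GAPB and another locus.

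SBPase, HCEF1 and PRK act in the phase that rebuilds the acceptor. SBPase splits phosphate from sedoheptulose bisphosphate, a step without a counterpart in the cytosol. It stood at 8.25, 9.42 and 2.01 CPM at preglobular, 41.1, 54.9 and 66.1 CPM at early heart and 95 to 104 CPM at late heart. It reached 295, 286 and 283 CPM at bent cotyledon, where all libraries exceeded those of late torpedo (218, 212 and 216 CPM), although this step was not called (0.42 ± 0.34, adjusted p = 0.372). It rose at globular (1.53 ± 0.37, adjusted p = 0.00468) and early heart (1.51 ± 0.35, adjusted p = 0.00624). It fell 4.48-fold at mature green (adjusted p = 2.91e-05), to 75.6, 79.8 and 37.2 CPM. The globular call of SBPase was lost when only the groups compared were fitted.

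HCEF1 is the chloroplast fructose-1,6-bisphosphatase, which commits triose phosphates to hexose and acceptor synthesis. Its level went from 5.67, 4.22 and 0.890 CPM at preglobular to 112, 111 and 122 CPM at bent cotyledon, and back to 5.21, 8.22 and 1.67 CPM at mature green. The mature green libraries overlapped the preglobular ones, and the difference between these ends was 0.49 ± 0.44 on the log2 scale (adjusted p = 0.319). HCEF1 rose at globular (1.97 ± 0.41, adjusted p = 0.00163) and early heart (1.22 ± 0.38, adjusted p = 0.0301), the latter call being lost without globular replicate 1 or 3 or early heart replicate 2 or 3. Its fall at mature green was 4.50 ± 0.44 on the log2 scale (adjusted p = 2.92e-08), 22.6-fold. In HCEF1, 4.74% of 50-base stretches were shared with AT3G54060, so part of its count may belong to that locus.

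PRK, phosphoribulokinase, makes the acceptor of carbon dioxide. Its preglobular libraries held 5.76, 5.60 and 0.141 CPM, the last from 3 counts. Globular libraries held 4.42, 15.3 and 12.1 CPM, which overlapped, and this step was just outside the threshold (1.46 ± 0.53, adjusted p = 0.0502). It was called without preglobular replicate 1 or 2, globular replicate 1 or early torpedo replicate 2. Limma on log2(TPM + 1) and on log2(TPM + 0.1) called it too. PRK rose at early heart by 1.93 ± 0.50 on the log2 scale (adjusted p = 0.0112), to 30.0, 39.2 and 52.5 CPM; without globular replicate 1 or early heart replicate 3 this was not called. Bent cotyledon held 480, 439 and 413 CPM and mature green 287, 253 and 170 CPM. The groups did not overlap, but this was the single gene of the 10 whose difference at the last step was not called (-0.91 ± 0.47, adjusted p = 0.113). It was called lower by limma on log2(TPM + 1), at -1.67 (adjusted p = 0.000635), and by edgeR when these stages alone were fitted (-0.88, adjusted p = 0.00737). PRK differed most between the ends of the series, standing 61.5-fold higher at mature green than at preglobular (5.94 ± 0.60, adjusted p = 1.25e-08).

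Step by step, the calls fell into a few stages. From preglobular to globular 6 of 10 genes rose and 0 fell, against 11.4% of all genes tested called higher and 12.2% lower. These were RBCS1A, RCA, GAPA1, GAPB, SBPase and HCEF1. With RBCS1B, 7 had globular libraries all above the preglobular ones, against 18.8% of all genes (20.4% in the other direction). From globular to early heart again 6 rose (8.57% of all genes; 9.03% lower), namely RCA, PRK, GAPA1, GAPB, SBPase and HCEF1. Libraries did not overlap for these and RBCS1A, against 22.1% of all genes higher and 19.2% lower. The count of calls was 2 without globular replicate 1 or early heart replicate 3, and 3 without early heart replicate 2. From early to late heart 0 were called by edgeR or DESeq2 (edgeR: 1.22% of all genes higher, 1.23% lower), and 3 had an unadjusted p under 0.05. Late heart libraries all lay higher for 8 of the 10, against 16.7% of all genes (13.2% lower). A fit of these stages alone called 7 higher, a count to which the shares above do not apply.

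At early torpedo 5 genes rose (13.3% of all genes; 5.76% lower), namely all 4 small-subunit genes and GAPA1, and RBCS3B alone remained without early torpedo replicate 2. Libraries did not overlap for 8 genes, all higher, against 24.7% of all genes (21.9% lower). The count of calls was 2 without late heart replicate 2 or 3, and 3 without late heart replicate 1. From early to late torpedo 0 were called by edgeR (0.666% of all genes higher, 0.466% lower) and 1 by DESeq2, 3 had an unadjusted p under 0.05, and 4 rose without early torpedo replicate 2: RBCS1B, RBCS2B, RBCS3B and RCA. Late torpedo libraries all lay higher for 5 genes, against 10.8% of all genes (7.32% lower). From late torpedo to bent cotyledon 0 rose by edgeR, DESeq2 or an unadjusted p under 0.05 (13.7% of all genes) and RBCS2B fell (19.7% of all genes lower). A fit of these stages alone called 4 higher, PRK, GAPA1, GAPB and SBPase, and 2 lower, RBCS2B and RBCS3B. The shares of genes called in this paragraph do not apply to that fit, nor to the counts with a library left out. Without overlap, PRK, GAPA1, GAPB, SBPase and HCEF1 lay higher (22.3% of all genes) and RBCS1B, RBCS2B and RBCS3B lower (27.9%).

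From bent cotyledon to mature green 9 of 10 fell, against 28.2% of all genes called lower and 27.2% called higher, and 0 had an unadjusted p under 0.05 in the upward direction. All 10 had mature green libraries below every bent cotyledon library, as did 30.2% of all genes, while 29.9% lay above. Their median log2 change was -2.86, against 0.01 over all genes tested.

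**Figure D3:**
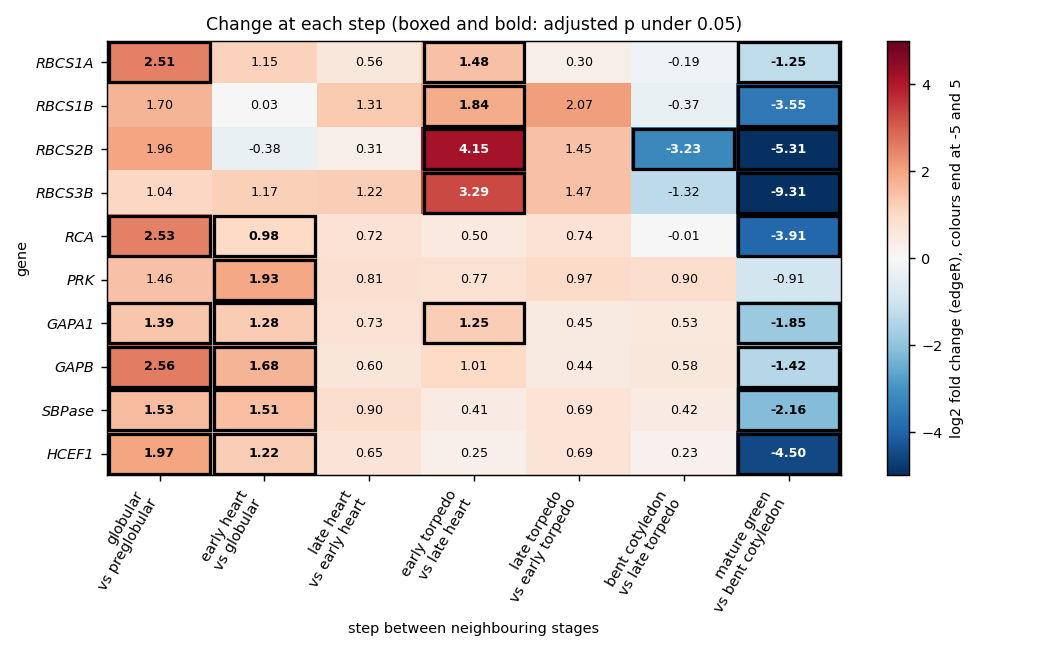
Log2 fold change of each gene (rows) at each of the 7 steps between neighbouring stages (columns), from edgeR over all 24 stage libraries; boxes and bold type mark an adjusted p under 0.05. Boxes mark 6 genes in each of the first and second columns, the small-subunit genes and GAPA1 at early torpedo, and every gene but PRK in the last column, where the RBCS2B value rests on 1 count at mature green.

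Between the ends of the series, 7 of 10 genes were higher at mature green than at preglobular (38.5% of all genes tested were, and 37.4% were lower). They were PRK, GAPB (5.45 ± 0.48 on the log2 scale), RBCS1A, GAPA1 (3.79 ± 0.40), SBPase (3.29 ± 0.39), RBCS1B (3.03 ± 0.86) and RCA (1.55 ± 0.29), each with an adjusted p of 0.00323 or less. The RBCS1B value rests on 25 summed counts at mature green against 5 at preglobular, a ratio of 8.69 (95% counting interval 3.27 to 29.1). RBCS1B was not called by limma on log2(TPM + 1), a scale that compresses the changes of rare genes (0.31, adjusted p = 0.323), and its edgeR value was 3.69 without preglobular replicate 1. RBCS2B, RBCS3B and HCEF1 were not called. RBCS3B, at -2.44 ± 1.21 (adjusted p = 0.0730), was called lower without preglobular replicate 3 (-2.86, adjusted p = 0.04) and without early torpedo replicate 2 (adjusted p = 0.0173). Over all 8 stages together, 10 of 10 genes differed (adjusted p of 9.73e-08 or less), as did 91.1% of all genes tested. The scale matters at the last stage. TMM factors were 0.5527 to 0.6281 in the mature green libraries, and the median gene differed from bent cotyledon by 0.00 in log2(CPM + 1) but by -0.44 in log2(TPM + 1). By limma on log2(TPM + 1) the last step was -2.03 for RBCS1A and -2.92 for SBPase, against -1.25 and -2.16 by edgeR, and on log2(TPM + 0.1) it was -5.45 for HCEF1 and -4.64 for RCA, against -4.50 and -3.91. The summed level of 8 endosperm markers moved with the last step, from 0.396 to 4.21 TPM in the 21 earlier libraries to between 42.3 and 49.8 TPM at mature green. EPR1 supplied 45.5 TPM of this on average. Of the other 7, AGL62 had a mature green mean of 0.114 TPM, ZOU of 0.0355, IKU2 of 0.0322, FIS2 of 0.0263 and FWA of 0.00568 TPM. MINI3 and PHE1 were at 0 there, and at 0 in 12 and 11 of all 24 stage libraries. The 7 seed coat markers summed to 11.5 to 23.6 TPM in the earlier libraries and to 5.61 to 12.2 TPM at mature green. They went different ways. From preglobular to mature green, STK went from 8.80 to 0.337 TPM by mean and BAN from 2.45 to 0.103 TPM. TT10 went from 0.0399 to 1.58 TPM and MUM4 from 5.89 to 7.06 TPM. DP1 was at 6.97 TPM at late torpedo and at 0 at mature green. Their part in the result was not tested.

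Other genes of the pathway were counted in the same fit. Of 12 further plastid enzymes of the cycle, 6 rose and 1 fell at globular, and 11 fell and 1 rose from bent cotyledon to mature green, with a median log2 change of -1.51. FBA2, a plastid aldolase, had mean levels of 4.27 TPM at preglobular, 640 TPM at bent cotyledon and 47.0 TPM at mature green. TKL2, a plastid transketolase, was the one that rose at the last step (4.59 on the log2 scale), from 3.11 to 42.6 TPM, while its partner TKL1 fell from 428 to 65.4 TPM. Of these 12 genes, 10 were higher and 2 lower at mature green than at preglobular, the lower ones being RPI3 and TIM, isomerases of ribose 5-phosphate and triose phosphate. That lower count was 1 without preglobular replicate 1 or 2 or mature green replicate 3, and the count that fell at globular was 2 without early torpedo replicate 2.

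Of 14 genes for Rubisco assembly and regulation, 13 passed the filter. From late torpedo to bent cotyledon 7 fell and 1 rose. Those that fell were BSD2, a chaperone of Rubisco assembly, RAF2, CP12-3 and all 4 of the plastid chaperonin genes listed, CPN60A1, CPN60B1, CPN60B2 and the co-chaperonin CPN20. BSD2 went from 175 to 74.1 TPM (-1.32 on the log2 scale) and CPN20 from 583 to 260 TPM (-1.25). The gene that rose was RBCL, the plastid-encoded large subunit, from 92.6 to 241 TPM (1.34). Plastid transcripts mostly lack the poly(A) tails that Smart-seq2 primes on, so this level does not stand for total RBCL RNA. At mature green 11 of the 13 fell, and RBCX2, another assembly chaperone, rose (0.98) from 16.3 to 19.0 TPM by mean. The count that rose there was 0 by limma on log2(TPM + 1), and 2 by DESeq2 and without bent cotyledon replicate 1 or 2, mature green replicate 2 or early torpedo replicate 2.

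Photorespiration, which recovers the product of Rubisco's reaction with oxygen, had 8 of 10 genes rising at globular and 8 falling at mature green. HPR1, the peroxisomal hydroxypyruvate reductase, was not called at the last step (0.01 ± 0.43 on the log2 scale) and GLYK, glycerate kinase, rose (1.37). Among 7 cytosolic counterparts of the plastid enzymes, 5 fell from bent cotyledon to mature green and FBA6, an aldolase, rose (2.19). GAPC1, the cytosolic dehydrogenase, was already at 965 TPM at preglobular, where GAPA1 was at 8.50 TPM, and the pair stood at 1427 and 480 TPM at bent cotyledon. All counts over these lists are read against the same background of all genes tested as above.

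**Figure D4:**
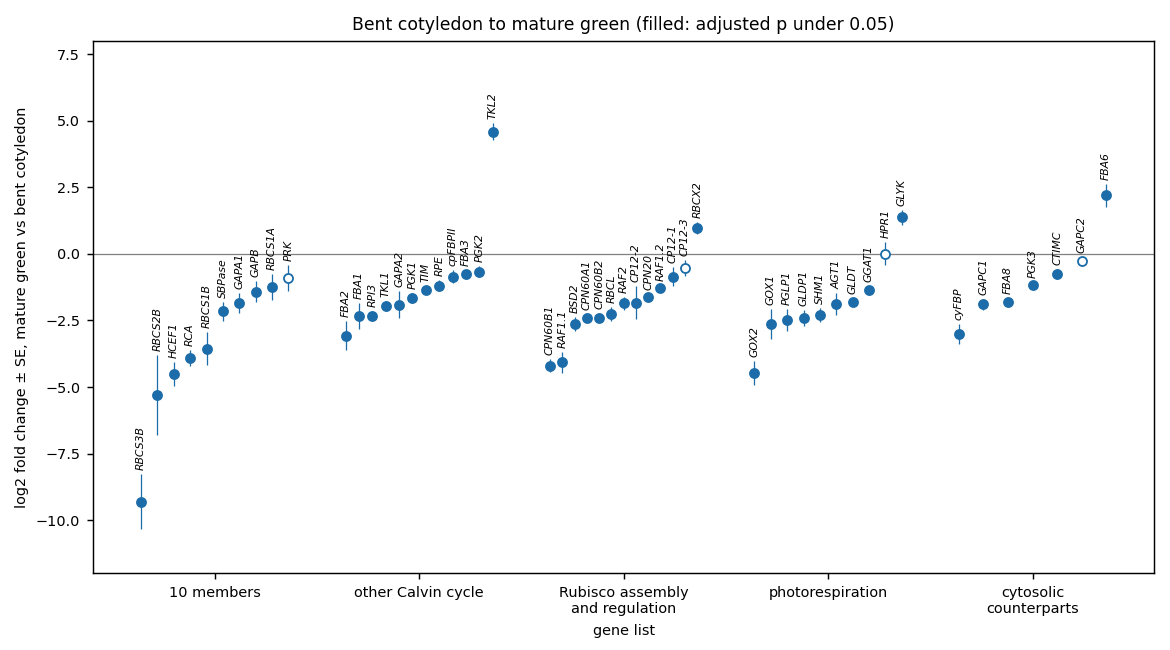
Log2 fold change (edgeR, ± SE) from bent cotyledon to mature green for the 10 members and 4 further lists of genes, each point a gene and each list ordered by its value; filled points have an adjusted p under 0.05. RBCS3B is the lowest of all genes plotted and TKL2 the highest, and PRK is the 1 open point among the members.

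The genes differed in how closely they followed the mean course of the 10. The Pearson correlation of a gene's 8 stage means, as log2(CPM + 1), with the mean of the 10 standardized profiles was highest for SBPase (0.974) and GAPA1 (0.965) and lowest for RBCS2B (0.772) and PRK (0.878). Each gene is part of that mean. Among 5837 other genes with at least 50 CPM in their highest stage mean, the 10 closest had correlations of 0.992 to 0.998 over the 8 stage means, which come from the same libraries. They were AT3G53560, AT3G29240, AT2G26500, PSBY, FED A, PSBW, CHLM, PSAE-1, LHCB4.2 and LHCB3. FED A is a ferredoxin, PSBY and PSBW are photosystem II subunits, PSAE-1 is a photosystem I subunit, LHCB4.2 and LHCB3 are light-harvesting proteins, and CHLM is an enzyme of chlorophyll synthesis. LHCB3 had stage means of 20.3 at preglobular, 1619 at late torpedo and 200 CPM at mature green.

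Promoters of light-regulated RBCS genes are known for the I-box and the G-box, short motifs that were first described in this family. The letters GATAAG (the I-box core) and CACGTG (the G-box), were searched on both strands in the 250 bases before the start of each gene's most abundant annotated transcript. GATAAG was present in 4 of the 10 windows (RBCS1B, RBCS2B, RCA and HCEF1), against 12.4% of 27263 windows of protein-coding genes. CACGTG was present in 3 (RBCS2B, PRK and HCEF1), against 6.69%. No match of one overlapped a match of the other in the windows of the 10 genes. When any annotated start was allowed, a choice made after the first matches were seen, each motif was present in 6 of the 10 genes, against 14.6% and 7.65% of all genes. The additional windows were those of shorter transcripts of RBCS1A, which held both motifs, of RBCS3B, which also held both, and of RCA, which held CACGTG. For RBCS1A the choice of window was close to even. The transcript used first held 46.2% of its counts at mature green and 53.6% at bent cotyledon, the lowest and highest of the stages. The windows of RBCS2B (minus strand, chr5:15382072-15382321) and PRK (plus strand, chr1:11531949-11532198) are printed 5′ to 3′ from RefSeq TAIR10.1, as examples of a window with both motifs and of one with CACGTG alone. Capitals mark the matches, CTTATC being GATAAG on the other strand.
RBCS2B: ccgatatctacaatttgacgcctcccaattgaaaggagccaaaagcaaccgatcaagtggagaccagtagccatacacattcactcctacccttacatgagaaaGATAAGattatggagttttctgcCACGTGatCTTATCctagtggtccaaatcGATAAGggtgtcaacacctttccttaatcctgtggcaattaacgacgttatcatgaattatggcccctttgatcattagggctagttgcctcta
PRK: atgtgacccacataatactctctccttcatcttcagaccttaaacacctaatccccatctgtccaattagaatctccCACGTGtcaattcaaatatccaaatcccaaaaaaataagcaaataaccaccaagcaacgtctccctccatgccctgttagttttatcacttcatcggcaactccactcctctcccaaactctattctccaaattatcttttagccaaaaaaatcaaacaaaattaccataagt
In RBCS2B the I-box cores began 146, 115 and 94 bases before the start, with the G-box between the first and second. In PRK the G-box began 173 bases before the start. RBCS2B and PRK followed different courses at the last steps, the former falling at bent cotyledon and the latter being highest there. A match is a description of letters and not of a bound site.

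Smart-seq2 libraries of diluted RNA were compared next. RBCS1A lay between 4154 and 5141 TPM over the 12 libraries of 5, 1, 0.5 and 0.1 ng, SBPase between 109 and 171 TPM and RBCS3B between 157 and 214 TPM. The rare copies varied more, RBCS1B from 1.65 to 11.7 TPM and RBCS2B from 0 to 3.22 TPM. Of the 10 genes, 0 were called at 1, 0.5 or 0.1 ng against 5 ng (edgeR), where 0, 0 and 0.205% of 17090 genes were. The lowest unadjusted p among the 10 was 0.078, for RBCS2B at 0.1 ng, a gene listed at 0 in 1 of those 3 libraries. Libraries of equal number share an RNA by their labels, but this test did not pair them, so differences between the RNAs added to its error. In CPM, RBCS1A stood at 6301, 5913 and 5449 at 5 ng and at 6712, 6105 and 5709 at 1 ng, in order of number. Its libraries of 0.5 and 0.1 ng also lay above the 5 ng library of equal number. In TPM the values were 4674, 4734 and 4994 at 5 ng and 4668, 4717 and 5141 at 1 ng, without such a shift. With at most 3 libraries each, a missing call does not show that the levels were equal.

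The preparation methods gave different levels for bent cotyledon RNA, with 1 library per input for Ovation and SMARTer and so no test. The titles of the Ovation and SMARTer samples name no replicate. A difference between RNAs can therefore not be told apart from the method. RBCS1A had medians of 4726 TPM with Smart-seq2, 277 TPM with Ovation and 19410 TPM with SMARTer. Medians are over all inputs of a method, and Smart-seq2 had none at 0.05 ng. The Ovation libraries held 277, 332, 244, 302 and 235 TPM from 5 to 0.05 ng, and the SMARTer libraries 18216, 19413, 22196, 24088 and 18616 TPM. The ranges of the 3 methods did not overlap. For the 9 genes with an Ovation median above 0, the Smart-seq2 median was 9.08 to 39.6 times that of Ovation, the largest ratio being that of RBCS3B (192 against 4.85 TPM). Up to 24.9% of counts in Ovation libraries fell on rows that were neither loci counted here nor spike-ins. This was at most 4.62% in the Smart-seq2 bent cotyledon libraries and 3.14% in SMARTer libraries. The part of this in the levels was not tested.

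SMARTer and Smart-seq2 differed by gene. The SMARTer median was 4.11 times that of Smart-seq2 for RBCS1A, 2.06 times for GAPA1 and 2.70 times for HCEF1. It was 0.859 times for PRK and 0.454 times for SBPase. These medians pool inputs of 5 to 0.1 ng for Smart-seq2 and of 5 to 0.05 ng for SMARTer. At 5 ng alone, PRK was higher in SMARTer (257 against 208 to 222 TPM). SBPase was still lower there (115 against 139 to 166 TPM), and RBCS1A, GAPA1 and HCEF1 were still higher. Within SMARTer, HCEF1 went from 206 TPM at 5 ng to 185, 177, 69.0 and 13.6 TPM at 1, 0.5, 0.1 and 0.05 ng, the last from 47 counts. PRK held 257, 184, 217, 65.5 and 109 TPM over the same inputs. In RBCS1A no such decline was seen. Relative levels of the 10 genes therefore differed between the libraries of the methods, and the stage comparisons above use Smart-seq2 alone.

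**Figure D5:**
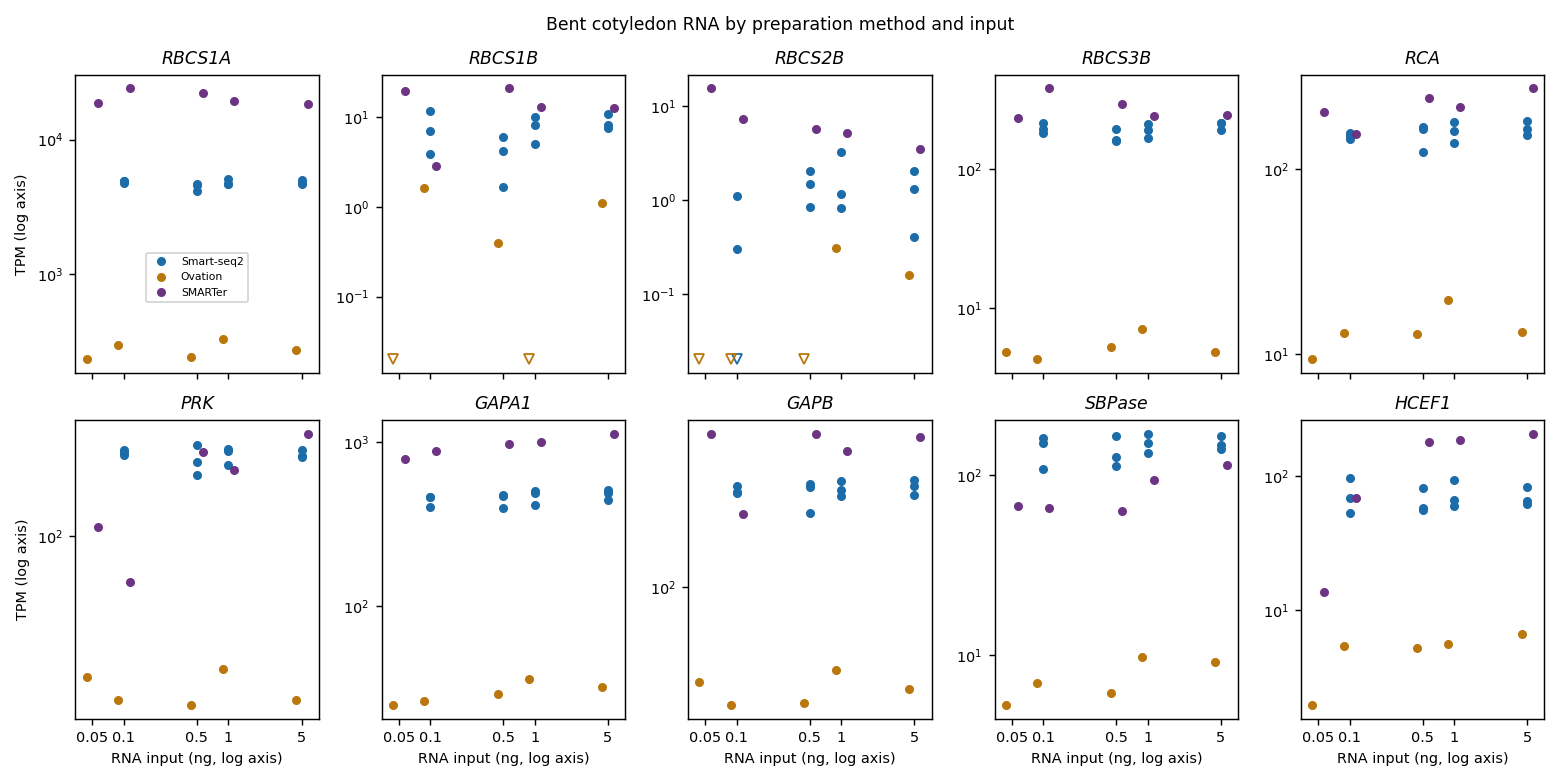
TPM of the 10 genes in bent cotyledon RNA prepared with Smart-seq2 (3 libraries per input), Ovation and SMARTer (1 each), on log axes against RNA input in ng; points of the methods are set slightly apart and open triangles mark 0. Ovation values lie below the Smart-seq2 values of all genes but the rare RBCS2B, where the ranges overlap, and RBCS1A, GAPA1 and RBCS3B are higher in SMARTer than in Smart-seq2.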

How the data were processed

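Per the submitters' processing notes, cutadapt 1.9.1, kallisto 0.43.1 and build TAIR10 were used; roles, settings and strand are not given in the sources used here. The deposited tables hold the authors' estimated counts per transcript, unscaled, and the authors' TPM, which is divided by length. Both were summed per locus. Counts were rounded and fitted with the quasi-likelihood model of edgeR 4.0.16 after its filterByExpr filter and TMM scaling, with the 24 stage libraries in 1 fit and the 12 Smart-seq2 input libraries in another. Spike-ins and other rows outside the loci, at most 4.981% and 3.402% of counts in stage libraries, were left out. SE is the absolute log2 fold change divided by the square root of F. Shares and ratios were tested with 100000 permutations of the stage labels. Input replicates share an RNA by their labels: the mean correlation of residuals was 0.153 for libraries of equal number and -0.0762 for the rest. Alternatives included DESeq2 1.42.0 and limma 3.58.1, other filters and scalings, and leaving out each replicate. Sequences and gene models came from RefSeq TAIR10.1, in which 99.59% of 48145 transcripts of nuclear protein-coding loci have a matching length. The edgeR test of globular against preglobular was checked on simulated counts with the same spread for all genes. That check does not cover an outlying library such as early torpedo replicate 2, or rare genes. The members, the gene lists and the rule for similar genes (the 10 highest correlations) were chosen with earlier results of these data known. The labels call the replicates biological without saying that they came from separate plants or batches, so p-values measure the spread between these samples.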

Additional observations from a re-analysis of the deposited data

How the results depend on the processing

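Among single-gene results with a changed setting, 594 kept direction and call, 31 gained and 11 lost a call and 16 changed sign; with 1 library left out the numbers were 493, 11, 29 and 7. The causes were not tested. Sign changes were those of differences that were not called. From globular to early heart, RBCS1B (0.03) was -0.001684 with RLE size factors and -0.001291 with DESeq2. With a library left out it ranged from -0.3395 to 0.5928 and RBCS2B from -0.82 to 0.08586. From late heart to early torpedo, limma on log2(TPM + 1) gave RCA -0.0489, SBPase -0.06357 and HCEF1 -0.2483, and on log2(TPM + 0.1) -0.04963, -0.06433 and -0.2536. From late torpedo to bent cotyledon, RCA (-0.01) was 0.01804 with RLE, 0.01745 with DESeq2, 0.00712 without a filter, 0.03423 with a filter of 5 CPM, 0.0392 and 0.03941 in limma, and 0.03815 with only these groups fitted, and ranged from -0.07259 to 0.06216 with a library left out. Between mature green and preglobular, HCEF1 was -0.00193 in limma on log2(TPM + 1) and ranged from -0.06227 to 0.9591, and RBCS2B (-1.055) from -3.69 to 2.601, with a library left out.

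Counts of called genes that moved by over 1.5 times were these, given without the shares of all genes called in the same fits. At late heart, 7 were higher with only the groups fitted. At early torpedo, 3 were higher in both limma fits and with only the groups fitted. At late torpedo, 1 was higher with DESeq2 and limma on log2(TPM + 0.1), and 3 in limma on log2(TPM + 1). At bent cotyledon, 4 were higher and 2 lower with only the groups fitted. Between mature green and preglobular, 1 was lower with DESeq2, limma on log2(TPM + 0.1) and only the groups fitted. With a library left out, counts ran from 5 to 7 higher at globular, 2 to 6 at early heart, 1 to 5 at early torpedo, 0 to 4 at late torpedo, 1 to 2 lower at bent cotyledon, 8 to 9 lower at mature green and 0 to 1 lower between the ends. For shares, F ran from 1.491 to 4.761 for RBCS1B and from 3.828 to 26.17 for RBCS2B.

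Numbers did not pair the stage libraries: residuals with the same number correlated at -0.0128 on average. With the replicate block the early torpedo rise of RBCS1A was 1.381 (adjusted p = 0.0516) and 4 genes rose there; it changed no other call of the 10 genes. The fit without early torpedo replicate 2 over all comparisons was chosen after seeing the data. RBCS1B and RBCS2B rest on few counts before late torpedo and at mature green.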
